A study of Danio rerio with 44 samples.

Results

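The lowest concentration of perfluorooctane sulphonate (PFOS), 0.001 mg/L, was compared with its own solvent control across all genes. The comparison uses 6 of the 44 libraries of the series: the 3 labelled PFOS at 0.001 mg/L and the 3 labelled PFOS solvent control, chosen by label alone. The series also holds PFOS at 0.1, 1 and 5 mg/L and the related compounds PFECHS (perfluoroethylcyclohexane sulphonate) and FBSA (perfluorobutane sulphonamide) with their own controls. Both groups were wild-type zebrafish, whole animals with no tissue or cell sorting. Exposure ran for 72 hours, from 24 to 96 hours post fertilization, and all groups, controls included, received 0.1% DMSO. Each library is a pool of 20 embryos. The p-values therefore measure the spread between pools, 3 per group, and not between single fish. For the comparison with the solvent control that spread was estimated over all 15 PFOS libraries.

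PFOS is a fluorinated surfactant whose carbon chain ends in a sulphonate group. It resists breakdown, binds serum proteins and fatty acid binding proteins, and collects in liver and blood. In mammals it can activate PPAR receptors, the transcription factors that turn on genes of fatty acid breakdown and storage. During the days of this exposure a zebrafish embryo hatches, its liver, pancreas and gut start to function, and it draws on its yolk for lipid.

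No gene passed the test at 0.001 mg/L. Of 21980 genes tested with edgeR's quasi-likelihood test, 0 were called higher (0%) and 0 lower (0%) at an adjusted p under 0.05, and limma-voom also called 0. The smallest adjusted p was 0.067. At an unadjusted p under 0.05, 4142 genes (18.8%) stood out, 2462 of them higher (11.2%) and 1680 lower (7.64%). Other fits gave other counts. DESeq2 on the same 15 PFOS libraries called 299 genes higher (1.56%) and 255 lower (1.33%) of 19179 with an adjusted p. When edgeR was fitted to the 6 compared libraries alone it called 421 higher and 249 lower. The 3 other PFOS concentrations, which enter the fit, had median standard deviations within a group of 0.22 to 0.26 in log2 CPM (counts scaled to a common library size), against 0.184 in the controls and 0.154 at 0.001 mg/L. The values below are accordingly given as differences between pools, not as changes that passed the test.

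Among larger differences, higher values in the exposed pools were far more frequent than lower ones. Exposed pools all lay above all control pools for 3650 genes (16.6%) and all below for 3369 (15.3%). With a difference of at least 2-fold as well, a limit set after the values were seen, 742 genes were higher and 47 lower. Among the 17204 genes whose mean log2 CPM was 1 or more, 342 were higher and 8 lower by this rule. The median log2 fold change over all genes was 0.02.

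**Figure D1:**
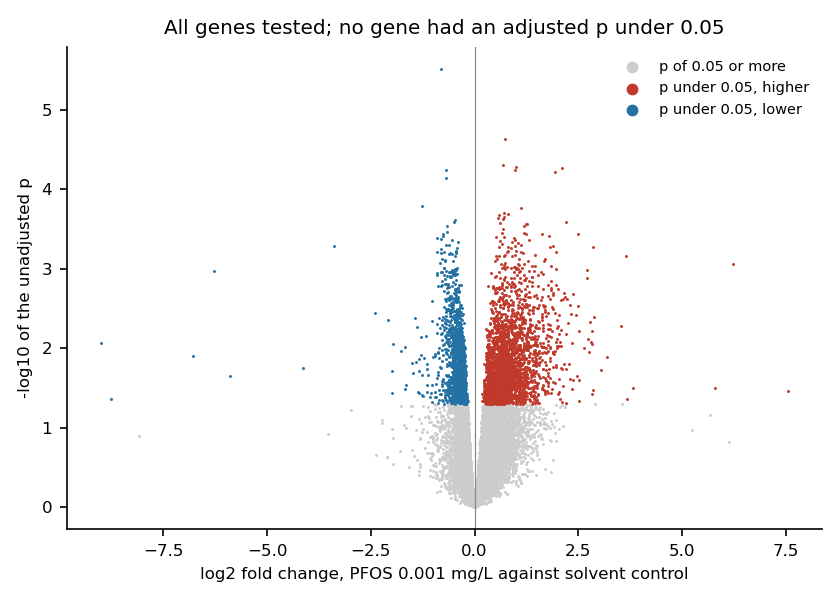
Log2 fold change at PFOS 0.001 mg/L against solvent control (x axis) and -log10 of the unadjusted p from edgeR (y axis) for the 21980 genes tested, 1 point per gene. At an unadjusted p under 0.05, 2462 genes lie to the right of 0 and 1680 to the left, and no gene had an adjusted p under 0.05.

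The pools were sequenced to similar depth, but the controls were not a tight group. Library totals ran from 27079934 to 32190879 counts in the 6 pools. On the first principal component of the 15 PFOS libraries (29.1% of variance) controls 1 and 2 scored -43.7 and -60.9, control 3 scored -2.48, and exposed pools 1 to 3 scored 26.0, 0.76 and 16.1. In log2 CPM over all genes, control 3 correlated with exposed pool 1 at 0.981, above its correlations with controls 1 and 2 (0.976 and 0.975). The part of this arrangement in the results was not tested. Values without each pool are given where they matter.

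**Figure D2:**
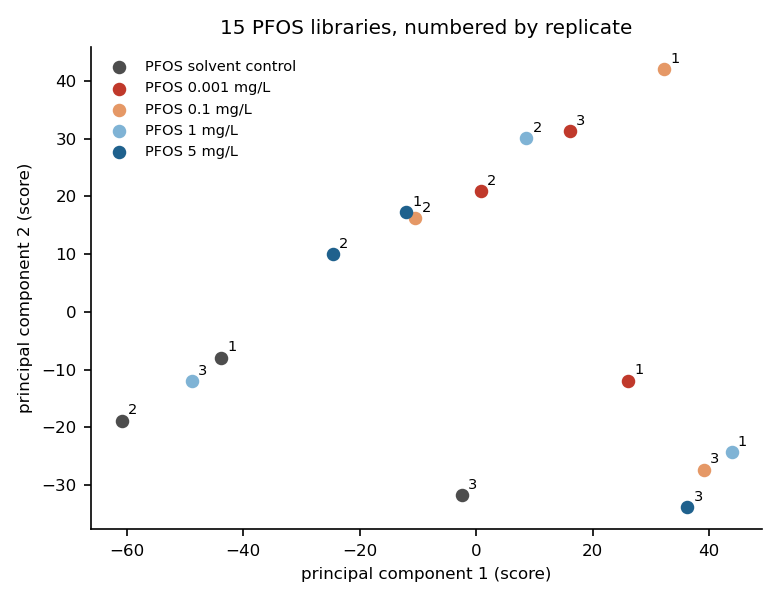
Scores of the 15 PFOS libraries on the first 2 principal components of log2 CPM, 1 point per pool, coloured by group and numbered by replicate. The 3 exposed pools at 0.001 mg/L lie to the right of all 3 controls, and control 3 (-2.48) lies close to exposed pool 2 (0.76) on the first component.

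The 10 genes with the smallest unadjusted p in the upward direction began with a pair of neurotransmitter transporters. SLC1A3 (ENSDARG00000043148), the glial glutamate transporter, stood at 29.8, 21.6 and 26.8 CPM in the controls and 43.8, 40.4 and 45.1 CPM in the exposed pools, a log2 fold change of 0.72 ± 0.12 (SE). SLC6A11, a GABA transporter, went with it at 30.8, 25.4 and 25.3 CPM against 43.8, 39.8 and 46.5 CPM (0.67 ± 0.12). In both transporters the lowest exposed pool lay well above the highest control.

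FBP2, the muscle form of the gluconeogenic enzyme fructose bisphosphatase, had 29.7, 28.7 and 39.7 CPM in controls and 77.8, 59.0 and 60.4 CPM in exposed pools (log2 fold change 1.01 ± 0.18). COLQ, which anchors acetylcholinesterase at the neuromuscular junction, had 5.199, 5.384 and 6.82 CPM against 11.8, 9.91 and 12.3 CPM (0.97 ± 0.17). GC, the vitamin D binding protein that the liver secretes, had 2.68, 2.36 and 3.98 CPM against 13.8, 9.65 and 11.2 CPM (1.94 ± 0.35). In a fit of all 44 libraries GC stood at 2.45, 3.13 and 1.545 CPM in PFECHS controls and at 7.43, 8.45 and 1.43 CPM in FBSA controls. GC had the largest fold change of the 10 genes named in this direction. The others were p3h4, part of a collagen hydroxylation complex (1.13 ± 0.22), the membrane transporter FLVCR2 (ENSDARG00000031506, 0.72 ± 0.15), nkain4 (0.80 ± 0.16), RNF24 (0.59 ± 0.12) and cldc1 (0.71 ± 0.15). Each of these 10 was higher in 3 of 3 exposed pools than in any control, which the naming rule required, and each had an adjusted p of 0.166.

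In the downward direction the proneural transcription factor ascl1b, which drives progenitors to become neurons, had the smallest p of all genes: 22.04, 22.52 and 18.66 CPM in controls and 10.96, 12.7 and 12.3 CPM in exposed pools, a log2 fold change of -0.81 ± 0.11 (adjusted p = 0.067). Its 3 exposed values lay close together and well under the controls. RBM5, a splicing regulator, had 348, 388 and 312 CPM against 218, 218 and 209 CPM (-0.70 ± 0.13). The actin gene actc1c had 55.7, 49.2 and 42.0 CPM against 17.2, 27.01 and 17.1 CPM (-1.26 ± 0.25). In the 44-library fit FBSA controls had 255, 283 and 567 CPM of RBM5 and 5.83, 22.2 and 65.2 CPM of actc1c. PFECHS controls had 378 to 425 CPM of RBM5 and 41.7 to 67.5 CPM of actc1c. How far such variation between unexposed pools enters these values was not tested.

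CABP4, a calcium sensor of photoreceptor synapses, had 24.98, 35.1 and 26.6 CPM in controls and 17.5, 15.3 and 13.6 CPM in exposed pools (-0.90 ± 0.20). The homeobox factors IRX6 (-0.80 ± 0.18) and hmx4 (-0.66 ± 0.14) were lower as well. The rest were the ubiquitin ligase rnf8 of DNA break repair (-0.47 ± 0.10), SCAF4 (ENSDARG00000018854), which binds RNA polymerase II (-0.50 ± 0.10), the zinc finger factor ZFAT (-0.53 ± 0.12) and the RNA-binding ilf3a (-0.40 ± 0.09). All 20 genes named in both directions kept their sign under each of 18 alternative settings, and all 20 were called under 2 of them: DESeq2 and the fit of the 6 compared libraries.

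**Figure D3:**
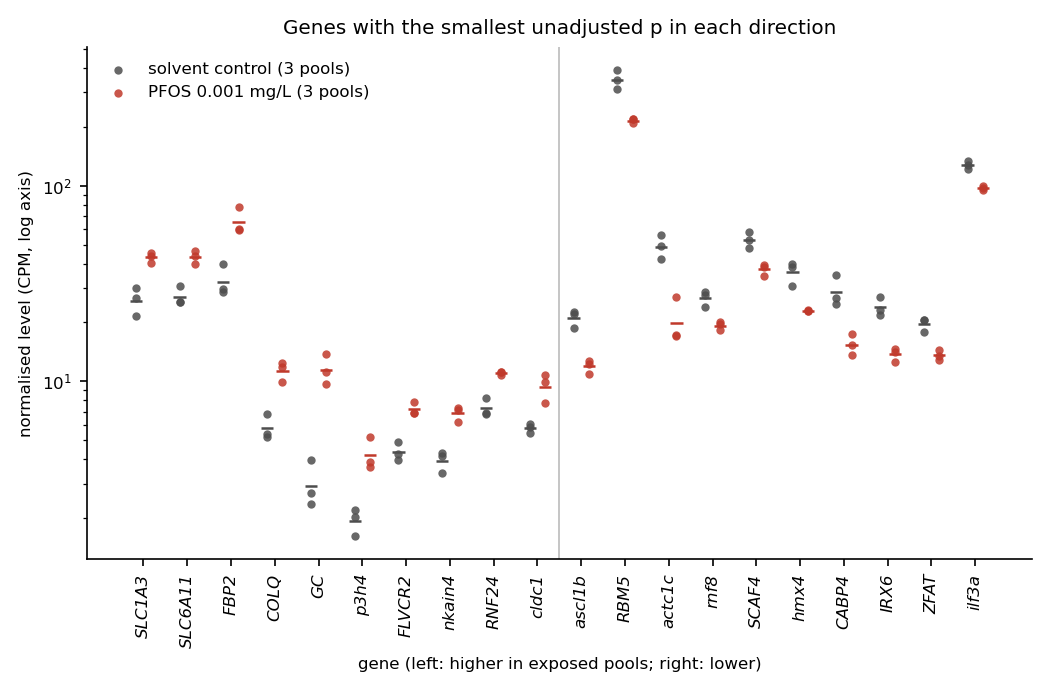
Level in CPM (y axis, log scale) of the 10 genes per direction with the smallest unadjusted p, 1 point per pool and a bar at the mean of the logged values. The naming rule kept only genes whose groups do not overlap, from ascl1b at 18.7 to 22.5 CPM in controls and 10.96 to 12.7 CPM in exposed pools to GC at 2.36 to 3.98 CPM against 9.65 to 13.8 CPM.

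Genes were also read by organ and function. Of 51 lists, 50 had members tested, and the 16 described first were picked after their medians were seen, so their direction is a description. No member of any list was called by edgeR. Each count of members above or below all controls stands against 16.6% above and 15.3% below among all genes tested. In a whole-embryo library, fewer cells of a type and less RNA per cell cannot be told apart.

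Liver genes were higher in the exposed pools. Of 44 liver genes tested, 23 lay above all controls and 2 below, against 16.6% and 15.3% of all genes, and the median log2 fold change was 1.03 against 0.02. Transferrin (tfa), the iron carrier of plasma, had 48.6, 62.9 and 141 CPM in controls and 304, 185 and 220 CPM in exposed pools (log2 fold change 1.49 ± 0.49). The liver fatty acid binding protein fabp10a had 18.3, 27.18 and 66.6 CPM against 111, 80.7 and 92.7 CPM (1.34 ± 0.51). The liver marker FGB overlapped between groups, at 8.37, 9.91 and 23.5 CPM against 37.6, 21.8 and 28.6 CPM (1.08 ± 0.45). In each of these genes control 3 stood well above the other controls, and without control 3 the liver median was 1.52.

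Complement and clotting genes, which the liver also makes, differed in the same direction. The complement list had 18 of 36 members above all controls and 0 below, with a median of 1.104. Its pentraxin apcs had 1.24, 1.08 and 2.41 CPM in controls and 5.30, 5.55 and 6.61 CPM in exposed pools (1.89 ± 0.43). The clotting list had 12 of 30 above and 0 below (median 0.79), among them the cofactor f5 at 1.21 ± 0.36. Its mean in log2 CPM was 1.595, 1.688 and 2.345 in controls and 2.927, 2.352 and 2.583 in exposed pools, so control 3 stood beside exposed pool 2. The liver list shares 2 members with the complement list and 9 with the clotting list, so the 3 lists are not separate measurements.

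Intestinal genes were higher, most of them with no overlap. Of 49 members 35 lay above all controls and 0 below, with a median of 1.01. ANPEP, an aminopeptidase of the brush border, had 26.6, 20.5 and 20.0 CPM in controls and 107, 52.0 and 67.6 CPM in exposed pools (1.76 ± 0.45). The peptide transporter SLC15A1 had 2.09, 2.45 and 2.60 CPM against 11.9, 5.12 and 7.53 CPM (1.78 ± 0.51). Control 3 did not stand apart in ANPEP or SLC15A1, but it was the highest control over the whole list. The intestine list mean in log2 CPM was 3.15, 2.88 and 3.34 in controls and 4.12, 3.90 and 4.21 in exposed pools. In the exocrine pancreas list, which holds digestive enzymes, 10 of 31 were above and 0 below (median 0.60), but only 4 (12.9%) had an unadjusted p under 0.05 with a higher value, near the 11.2% of all genes. The list mean in log2 CPM was 2.63, 2.46 and 3.02 in controls and 3.02, 3.52 and 3.40 in exposed pools, so control 3 reached exposed pool 1. Of the defining pancreas markers prss1 (0.67 ± 0.35) and ctrb.1 (0.50 ± 0.43) overlapped and ela2l (0.84 ± 0.41) did not. In the same list the chymotrypsin-like ctrl had 13.96, 9.75 and 17.5 CPM against 23.7, 28.0 and 24.8 CPM (0.90 ± 0.40).

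Lipoprotein and bile acid genes were higher in the exposed pools. Lipoprotein genes had 15 of 33 members above all controls and 1 below (median 0.67), with the apolipoprotein apoa4b.3 at 1.82 ± 0.55 and MTTP, which loads lipid onto lipoproteins, at 1.24 ± 0.42. Bile acid genes had 14 of 26 above and 0 below (median 0.71). Among these were the bile acid importer SLC10A1 (1.98 ± 0.59) and the synthesis enzyme CYP8B1 (1.34 ± 0.41). The cholesterol transporter NPC1L1 had 2.81, 0.64 and 1.15 CPM in controls and 9.85, 4.23 and 6.77 CPM in exposed pools (2.17 ± 0.59). Its list of sterol synthesis and uptake had 5 of 31 members above (16.1%, near the 16.6% of all genes) and 2 below (6.45%). The median of that list was only 0.07.

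PPAR genes were mixed. The receptor pparg, the regulator of fat storage, had 1.34, 0.64 and 1.03 CPM in controls and 5.53, 3.25 and 5.14 CPM in exposed pools (2.21 ± 0.46). In a fit of all 44 libraries pparg stood at 1.18, 0.80 and 0.77 CPM in PFECHS controls. In FBSA controls it stood at 5.47, 6.13 and 0.44 CPM, so 2 pools without PFOS were at the level of the exposed pools. PPARA, the receptor most tied to fatty acid breakdown, overlapped between groups at 0.78, 0.41 and 0.84 CPM against 1.8, 0.76 and 1.19 CPM (0.88 ± 0.52). Of 60 genes of fatty acid oxidation and PPAR targets, 22 were above all controls and 2 below, with a median of 0.29. FABP1 (1.05 ± 0.35) and the muscle carnitine transferase CPT1B (0.49 ± 0.19) did not overlap, whereas CPT1A (0.10 ± 0.09) and ANGPTL4 (0.34 ± 0.27) did. In fatty acid synthesis and elongation 3 of 25 members were above (12%) and 3 below (12%), with a median of 0.10. Both shares were under those of all genes (16.6% and 15.3%). In that list the elongase ELOVL6 was lower (-0.44 ± 0.12), FASN overlapped (-0.17 ± 0.29) and DGAT2, which makes triglyceride, was higher (2.04 ± 0.64).

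Enzymes that modify foreign compounds and endogenous lipids were higher. The P450 oxidases of families 2, 3 and 4 had 18 of 44 members above all controls and 0 below (median 0.53). The list mean in log2 CPM was 1.853, 1.627 and 2.29 in controls and 2.593, 2.313 and 2.655 in exposed pools, so control 3 stood beside exposed pool 2. cyp2k21 had 0.62, 0.48 and 0.77 CPM in controls and 3.03, 1.71 and 1.78 CPM in exposed pools (1.804 ± 0.39), and cyp3c3 was at 1.93 ± 0.56. Of 59 conjugating enzymes 31 were above and 0 below (median 0.59), including the glutathione transferase gstp1.1 (1.85 ± 0.47) and the glucuronosyl transferase UGT1A1 (1.29 ± 0.40). CYP1A1, the marker of the aryl hydrocarbon receptor, had 4.51, 3.504 and 4.90 CPM against 7.29, 6.86 and 11.5 CPM (0.99 ± 0.40). It had the highest fold change in the list of that receptor's targets. In that list 5 of 19 members lay above all controls (26.3%) and 2 below (10.5%), with a median of 0.41. In a fit of all 44 libraries CYP1A1 stood at 4.98, 3.90 and 2.905 CPM in PFECHS controls and at 8.79, 6.33 and 1.71 CPM in FBSA controls.

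Muscle, cartilage and matrix genes were higher as well. The extracellular matrix list had 42 of 67 members above all controls and 0 below, with a median of 0.58. COL4A1, a basement membrane collagen, had 3.89, 2.52 and 5.75 CPM in controls and 13.9, 11.9 and 17.0 CPM in exposed pools (1.82 ± 0.41). In cartilage and bone 17 of 47 were above and 1 below (median 0.55), among them COL10A1 of maturing cartilage (1.23 ± 0.27). The defining cartilage markers overlapped between groups: both COL2A1 copies (0.29 ± 0.19 and 0.34 ± 0.24), MATN1 (1.01 ± 0.42) and acana (0.87 ± 0.32). In skeletal muscle 25 of 64 were above and 1 below (median 0.47), with the troponin TNNI2 (ENSDARG00000035958) at 15.0, 13.99 and 21.5 CPM against 37.3, 29.9 and 30.2 CPM (0.95 ± 0.24). The muscle list mean was 7.23, 7.17 and 7.79 in controls and 8.02, 7.84 and 7.93 in exposed pools (log2 CPM), so control 3 stood near the exposed pools, and without it the muscle median was 0.71. The defining muscle genes ckma (0.34 ± 0.23) and pvalb1 (0.09 ± 0.21) overlapped between groups.

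Photoreceptor genes were lower. Of 65 phototransduction genes 28 lay below all controls and 0 above, with a median of -0.36. The photoreceptor transcription factor crx had 301, 332 and 294 CPM in controls and 168, 204 and 187 CPM in exposed pools (-0.73 ± 0.20). The cone transducin subunit GNB3 had 195, 235 and 173 CPM against 120, 128 and 113 CPM (-0.74 ± 0.20). The light-responsive cryptochrome cry3a, a member of the circadian clock list, was also lower, at 800, 850 and 834 CPM against 669, 499 and 500 CPM (-0.57 ± 0.14). The clock list had 16 of 49 members below all controls (32.7%) and 2 above (4.08%), with a median of -0.15. Those shares stand against 15.3% and 16.6% of all genes.

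Most ribosomal and mitochondrial transcripts were lower by a small step. Log2 fold changes ran from -0.46 to 0.28 in the cytosolic ribosome list and from -0.29 to 0.21 in the mitochondrial genome. In the cytosolic ribosome list 62 of 78 genes were below all controls and 0 above, although the median was only -0.18. In the mitochondrial genome 8 of 13 were below and 1 above (median -0.18), and mitochondrial transcripts took 5.09% to 5.38% of counts in controls and 4.37% to 4.83% in exposed pools. Over the 80 respiratory chain genes of the nucleus the median was 0.02.

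**Figure D4:**
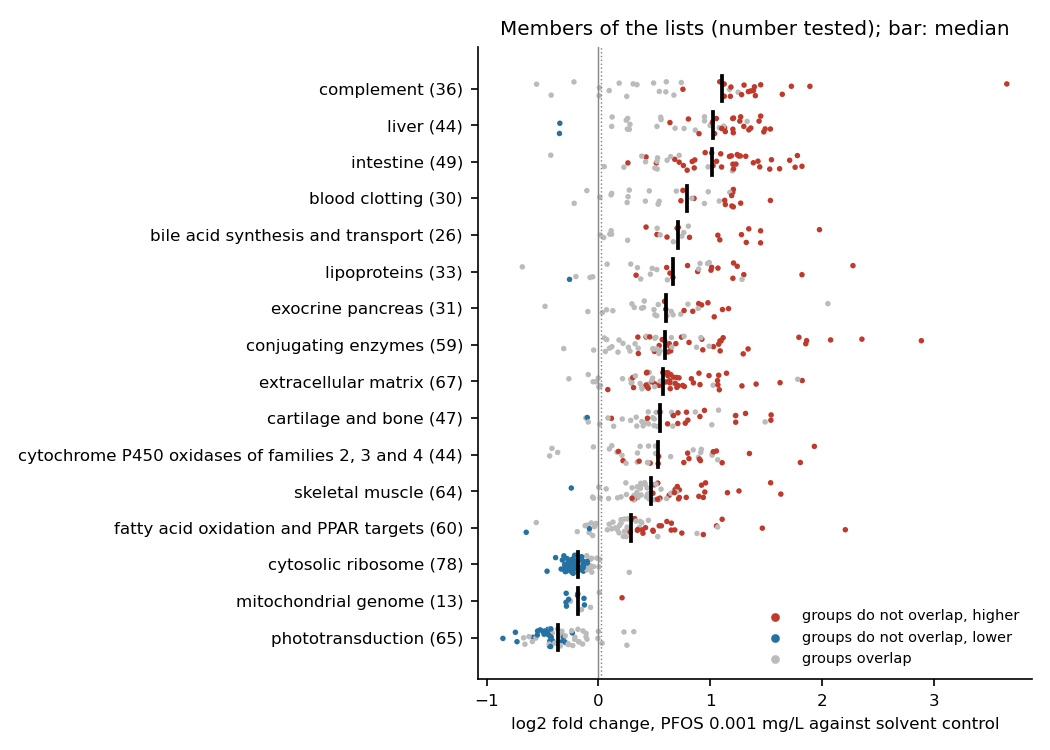
Log2 fold change (x axis) of the members of 16 gene lists (y axis, number tested in brackets), 1 point per gene, coloured where the 3 exposed and 3 control pools do not overlap; the dotted line marks the median of all genes at 0.02. List medians run from 1.104 in complement to -0.36 in phototransduction.

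Some lists outside those described first were higher to a similar degree. Heart muscle had 13 of 36 members above all controls and 1 below (median 0.49), against a median of 0.47 in skeletal muscle. The defining heart markers MYL7 (0.69 ± 0.32), MYH7 (0.70 ± 0.29) and nppa (1.16 ± 0.53) overlapped between groups. Keratins and epidermis had 20 of 50 above (40%) and 0 below (median 0.40), against 16.6% and 15.3% of all genes. Of the defining epidermis markers krt4 (0.12 ± 0.29) and cyt1 (0.04 ± 0.36) overlapped and icn (0.45 ± 0.23) did not. Claudins and tight junctions had 19 of 44 above and 3 below (0.38), and swim bladder 7 of 17 above and 1 below (0.43). In the claudin list only 6 (13.6%) had an unadjusted p under 0.05 with a higher value, near the 11.2% of all genes. The remaining lists had smaller medians or members on both sides. Red blood cell genes had 11 of 28 members above all controls and 2 below (median 0.40), with the erythroid factor klf1 at 2.49 ± 0.54 from under 1 CPM in every pool. Among glial genes GFAP had 187, 168 and 207 CPM in controls and 260, 281 and 253 CPM in exposed pools (0.50 ± 0.12). Neuronal genes, with 8 of 58 above (13.8%) and 12 below (20.7%) and a median of -0.15, lay near the shares of all genes (16.6% and 15.3%). The glucocorticoid list had 9 of 39 members above (23.1%) and 5 below (12.8%), with a median of 0.26. KLF9 was at 1.19 ± 0.33, while the glucocorticoid target FKBP5 overlapped between groups (-0.11). The AP-1 list had 9 of 48 above (18.8%) and 5 below (10.4%), with a median of 0.07. Its member JUNB (ENSDARG00000074378) was lower, at 22.1, 26.4 and 23.6 CPM against 14.7, 13.98 and 14.5 CPM (-0.74 ± 0.18). Medians lay near 0 for p53 targets (0.05), heat shock (0.04), endoplasmic reticulum stress (0.04), the proteasome (-0.02) and cell cycle genes (-0.06).

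The homeobox gene evx1 was listed at 0 in all exposed pools. This gene, an even-skipped factor of the embryonic tail and spinal cord, had estimated counts of 72.2, 111 and 10.7 in the controls and 0 in each pool at 0.001 mg/L. With a floor of 3 counts over the exposed group it was at least 69.7-fold lower (adjusted p = 0.178). It was also at 0 in all pools at 0.1 and 1 mg/L and in 2 of 3 pools at 5 mg/L, where replicate 1 had 53.1 counts. The floor covers counting error only. Unexposed pools also lacked it: on the scale of the fit to all 44 libraries it stood at 0, 0 and 2.79 CPM in the PFECHS controls and at 0, 0 and 3.60 CPM in the FBSA controls. At 0.001 mg/L of the other compounds it stood at 1.85, 3.01 and 0 CPM with PFECHS and at 1.37, 1.8 and 2.70 CPM with FBSA. A value of 0 was therefore not particular to PFOS or to exposure.

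Solvent controls of the other compounds spread across the levels of both groups. On the scale of a fit to all 44 libraries, the mean of log2(CPM + 0.1) over liver genes was 2.80, 3.02 and 3.84 in the PFOS controls and 4.32, 3.98 and 4.13 at 0.001 mg/L. In controls kept for PFECHS it was 3.01, 3.09 and 2.56, and in those kept for FBSA 3.91, 4.29 and 2.62. Thus 2 FBSA control pools, which had no PFOS, stood at or near the level of the exposed pools. The intestine list showed the same pattern, with FBSA controls at 4.27, 4.101 and 2.26 beside exposed pools at 4.14, 3.90 and 4.21. For phototransduction the order was turned around: FBSA controls had 5.70, 5.61 and 6.39, exposed pools 5.77, 5.80 and 5.58, and PFOS controls 5.97, 6.19 and 6.01. How far such variation between unexposed pools enters the PFOS comparison was not tested.

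**Figure D5:**
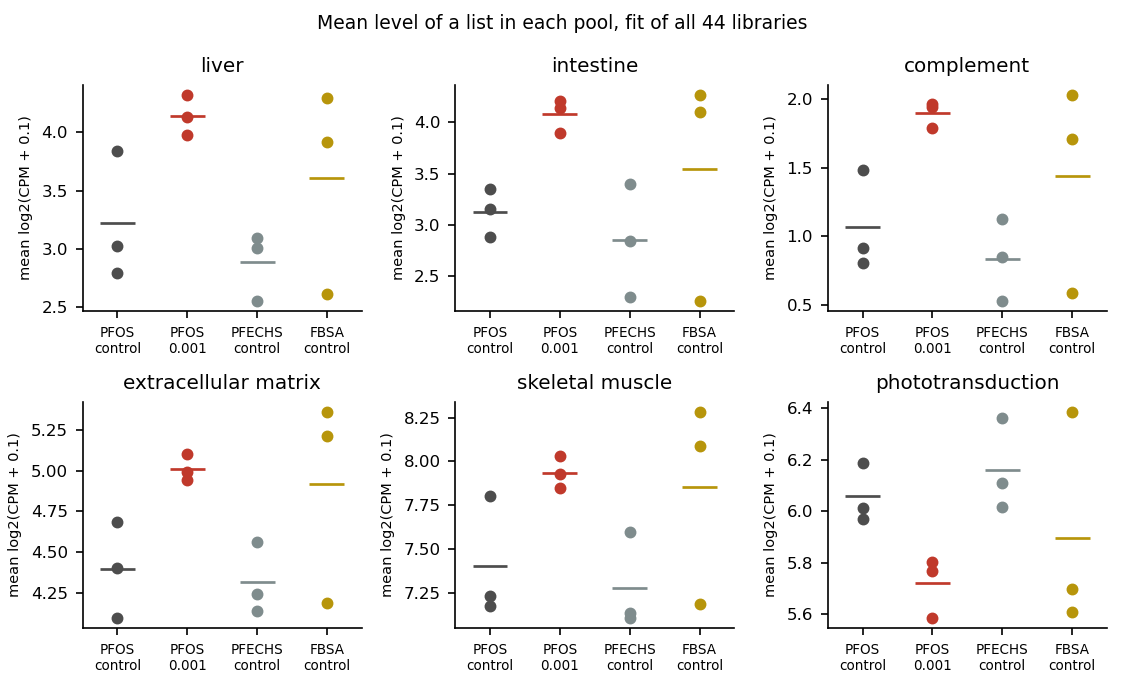
Mean log2(CPM + 0.1) of 6 gene lists (y axis) in PFOS control, PFOS 0.001 mg/L, PFECHS control and FBSA control pools (x axis), 1 point per pool with a bar at the group mean, from the fit of all 44 libraries. FBSA controls 1 and 2 lie near the exposed pools (liver 3.91 and 4.29 against 3.98 to 4.32), and FBSA control 3 lies at 2.62.

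Liver and intestine medians were smaller at each of the higher PFOS concentrations, and the matrix median was smaller at 1 and 5 mg/L but not at 0.1 mg/L. The liver median was 1.03 at 0.001 mg/L, 0.52 at 0.1, 0.33 at 1 and 0.38 at 5 mg/L, and the intestine medians were 1.01, 0.46, 0.41 and 0.26. Matrix medians were 0.58, 0.65, 0.39 and 0.51. All these values are set against the same 3 controls, so they are not independent. Against control, edgeR called 255 genes higher (1.16%) and 121 lower (0.551%) at 0.1 mg/L, 3 higher (0.0136%), among them ANKRD11 and PRKG1, and 0 lower (0%) at 1 mg/L, and 36 higher (0.164%) and 4 lower (0.0182%) at 5 mg/L. ascl1b, not called at 0.001 mg/L, was called lower than in these controls at 0.1 mg/L (-0.91, adjusted p = 0.006) and at 5 mg/L (-0.59, adjusted p = 0.049).

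Set directly against the other concentrations, which needs no control, PFOS at 0.001 mg/L differed in few genes, each lower at 0.001 mg/L. Against 0.1 mg/L 1 gene was called lower (0.00455%): ANKRD11, a chromatin regulator, had 35.2, 30.8 and 31.7 CPM at 0.001 mg/L and 55.9, 64.3 and 55.9 CPM at 0.1 mg/L (-0.85 ± 0.11, adjusted p = 0.0461). PFOS controls had 29.7, 31.5 and 27.01 CPM of ANKRD11, close to the lowest concentration. Other unexposed pools differed: ANKRD11 stood at 26.99, 29.3 and 48.9 CPM in PFECHS controls in the 44-library fit. In FBSA controls it stood at 46.96, 82.7 and 60.4 CPM, so these pools without PFOS spread around the level at 0.1 mg/L. Against 1 mg/L 2 genes were called lower (0.0091%): psip1b, a chromatin-binding factor (-1.13 ± 0.16), and the protein disaggregase clpb (-0.94 ± 0.13), both with adjusted p = 0.0478. In the 44-library fit psip1b ran from 38.9 to 41.97 CPM in PFOS controls, 38.0 to 66.9 in PFECHS controls and 34.0 to 81.4 in FBSA controls. In the same groups clpb ran from 24.7 to 33.2, 26.1 to 60.3 and 33.7 to 63.2 CPM. How far such variation between unexposed pools enters these calls was not tested. At an unadjusted p under 0.05 the shares were 4.21% against 0.1 mg/L, 6.51% against 1 mg/L and 8.55% against 5 mg/L.

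Against 5 mg/L 4 genes were called lower (0.0182%). PRKG1, the cGMP-dependent protein kinase, had 14.1, 14.1 and 17.3 CPM at 0.001 mg/L and 61.3, 42.9 and 42.1 CPM at 5 mg/L (-1.68 ± 0.23, adjusted p = 0.0293). The sarcomere protein tcap was at -1.38 ± 0.20, the glycogen-targeting subunit ppp1r3aa at -1.03 ± 0.12 and clpb at -0.96 ± 0.13. In the controls PRKG1 had 11.8, 12.2 and 10.1 CPM, so the pools at 0.001 mg/L lay just above the controls and far under 5 mg/L. No liver or intestine gene was called in any of the 3 direct comparisons, and their median differences, 0.001 minus 5 mg/L, were 0.50 and 0.74. These few calls were not stable. Replicates left out in turn gave 0 genes against 0.1 mg/L, 0 to 1 against 1 mg/L and 0 to 28 against 5 mg/L. The 28 came without 5 mg/L replicate 3. That pool, 1 mg/L replicate 1 and 0.1 mg/L replicate 3 stand at places 41 to 43 of the deposited values, apart from the other 12 PFOS libraries. They scored 36.25, 43.8 and 39.1 on the first principal component and -33.9, -24.4 and -27.35 on the second. No pool at 0.001 mg/L and no PFOS control stands there. The labels do not explain this order, and its part in these direct comparisons was not tested.

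The PFOS difference was also compared at 0.001 mg/L with those of PFECHS, whose chain carries a ring, and FBSA, with a shorter chain and a sulphonamide in place of the sulphonate. Each compound was set against its own controls in the fit of 44 libraries, and 2 pairs were compared with p-values adjusted over both. In this fit 0 genes were called for PFOS, with 6.77% at an unadjusted p under 0.05, against 3.77% for PFECHS and 1.14% for FBSA, which also had 0 called. No gene differed between PFOS and PFECHS by edgeR (0%; 215 at an unadjusted p under 0.05, 0.947%) and none between PFOS and FBSA (0%; 1104, 4.86%), and DESeq2 called 1 in each pair, evx1 in both cases. That does not show that the compounds act alike, as the intervals were wide. For transferrin the log2 fold change was 1.49 with PFOS and 1.00 with PFECHS, and the difference of 0.49 had an unadjusted 95% interval of -1.60 to 2.57. Against FBSA (0.04) the difference was 1.45, with an interval of -0.64 to 3.54.

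Some of the genes named above had intervals that left out 0 before adjustment. They were named for a small p in the PFOS comparison, which moves their differences from the other compounds away from 0, so the values are a description. FBP2 was higher with PFOS by 1.01, against -0.06 with PFECHS and -0.10 with FBSA, and the differences were 1.06 (0.13 to 2.00) and 1.11 (0.18 to 2.04). For nkain4 the differences were 0.83 (0.23 to 1.42) and 0.75 (0.16 to 1.34). For SLC1A3 the difference was 0.25 (-0.49 to 0.98) from PFECHS and 1.00 (0.27 to 1.73) from FBSA, whose controls stood at 43.7, 46.3 and 28.3 CPM against 29.9, 21.7 and 26.97 CPM in the PFOS controls. For every gene named here the adjusted p of both differences was 1. The liver list had a median of 1.02 for PFOS, 0.74 for PFECHS and 0.05 for FBSA in this fit.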

How the data were processed

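RNA was sequenced from pools of whole embryos. The authors deposited 1 table of values per gene and library, taken here to be expected counts (estimated counts of reads), since the values are not negative, 61.7% to 69.8% of those in the 6 compared libraries are not whole and totals differ. Per the submitters' processing notes, FastQC, MultiQC and Trimmomatic were used; no source used here names the aligner, the counting program or the build. Groups came from the sample labels.

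Counts were rounded to whole numbers. Genes were filtered with filterByExpr by group, scaled with TMM and tested with edgeR 4.0.16 (R 4.3.3, quasi-likelihood F test, Benjamini-Hochberg over all genes, threshold 0.05) in 1 fit of the 15 PFOS libraries, with 10 residual degrees of freedom. Compound differences used all 44 libraries (22703 genes). 1 count equalled 0.0306 to 0.0383 CPM in the 6 libraries, and pools differed by more than sampling noise. Each standard error was obtained as the size of the log2 fold change over the square root of F. The method was tested on simulated data. DESeq2 1.42.0, limma-voom (limma 3.58.1), other scalings, filters and sample sets, a replicate block and leaving out pools were tried.

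The comparison and gene lists were chosen with earlier results of these data known. Genes were named by rule: the 10 per direction with the smallest p, a usable symbol, a mean log2 CPM of at least 1 and no overlap between groups; up to 3 members with the smallest p per list; indicator genes; and up to 3 called genes per direction in the other comparisons. The fourth gene called against 5 mg/L, clpb, and defining markers of liver, pancreas, cartilage, muscle, heart and epidermis are named besides. The 16 lists described first, the 2-fold count and the pseudocount of 0.1 CPM in list means were set after values were seen. A reference table gave a symbol to 23598 of 25859 identifiers, and 3440 of these share one. Of 2036 list symbols, 1463 were found as such, 228 by a RefSeq synonym, 222 without the copy letter or number (table symbols in capitals only) and 123 not at all; these matches can bring in a wrong copy.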

Additional observations from a re-analysis of the deposited data

How the results depend on the processing

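The count of 0 genes against the solvent control held under 15 of 18 settings, with 1537 to 5698 genes at an unadjusted p under 0.05. DESeq2 called 554 genes and edgeR on the 6 compared libraries 670. Leaving out pools in turn gave 0 to 1, the 1 being ARG1 without control 1. For exposed and control pools that share a replicate number, deviations from the group means correlated at -0.268, 0.188 and -0.175. Deviations within a group of 3 pools depend on each other, so these values cannot show whether the numbers pair the samples. A fit with the replicate block also called 0 against control, and it called 0 against 0.1 mg/L, 0 against 1 mg/L and 1 against 5 mg/L, where edgeR without it called 1, 2 and 4. DESeq2 called 29, 56 and 150 in these comparisons, the fit of all 44 libraries 0, 0 and 2 (for 5 mg/L, vgf and a clone-named gene), and edgeR with DESeq2 size factors 0, 0 and 4. With a filter of at least 1 CPM in 3 libraries, edgeR called the same genes as the main fit. It added a clone-named gene against 1 mg/L. Leaving out pools gave 0 to 0, 0 to 1 and 0 to 28. DESeq2 called 1 gene, evx1, in each compound difference, and every other setting run gave 0. With pools left out in turn the medians ran from 0.785 to 1.52 for liver, 0.861 to 1.37 for complement and 0.659 to 0.866 for bile acid genes, each highest without control 3. The other 301 of 304 list medians moved by less than the spread between pools, and all medians kept their sign. Of 203 named genes, 192 kept their sign in every setting that gave them a value. That was 17 settings for klf1, 16 for crp1 and kiss2, and 18 for the rest. The term for place in the table and the fit of the 12 PFOS libraries placed first were chosen after seeing the data. The causes were not tested. With 3 pools per group and a median standard error of 0.199, small differences are not detectable at this depth of replication.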
